A study of Mus musculus with 16 samples.

Results

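The 10 genes described here encode enzymes that make serine, pass its carbon to folate, and make asparagine and cysteine: Phgdh, Psat1, Psph, Shmt1, Shmt2, Mthfd2, Mthfd1l, Aldh1l2, Asns and Cth. All 10 were found by symbol among the 45777 genes of the deposited table of mouse ear skin, and all 10 passed the filter on low counts, with 239 to 10522 reads per library. They were selected by name as members of these pathways at a time when their read counts in the comparison below were already known. Their differences, intervals and calls in the fit over all genes are therefore a description and no independent test, and no p-value is printed for them.

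RNA came from ears of wild-type C57BL/6 mice in a model of atopic dermatitis, and polyA RNA was sequenced. Every mouse described here had MC903 (calcipotriol, a vitamin D analogue that inflames skin) at 50 µM on both ears, 20 µL at a time, once a day over 10 days. In 3 libraries the mice also had an antibody neutralising oncostatin M (anti-OSM), a cytokine of the interleukin 6 family, at 20 µg per mouse, given into the skin on alternate days. In the other 3 the mice had an antibody against the neutrophil surface protein Ly6G (anti-Ly6G), at 200 µg per mouse, injected into the peritoneum 2 days ahead of MC903 and again 1 and 4 days after it. Antibody, dose, route and schedule thus differed together, no isotype antibody or age is named, and the label group of ears given MC903 without antibody was not analysed here, so which group moved cannot be told. The 6 libraries held 52163179 to 64122588 counts each.

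Serine is made from the glycolytic intermediate 3-phosphoglycerate in a chain of steps run by Phgdh, Psat1 and Psph. Serine hydroxymethyltransferases then move a carbon from serine onto folate, in the cytosol (Shmt1) or in mitochondria (Shmt2). The mitochondrial enzymes Mthfd2, Mthfd1l and Aldh1l2 carry it on to formate or carbon dioxide, of which the formate feeds purine and thymidylate synthesis. Asns makes asparagine from aspartate, and Cth releases cysteine from cystathionine. Several of these genes are known targets of ATF4, a transcription factor induced when amino acids run short, which binds composite elements shared with C/EBP proteins.

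Promoter sequences are shown for the members whose window held one of the motifs searched. A pair of related genes that held the ATF4 composite element, both lower with anti-OSM, is printed with them. RefSeq windows (GRCm38.p6, 250 bases before to 50 after the transcript start) were available for 8 members, as 9 windows, and not matched for Aldh1l2 and Cth. Both strands were searched for the letters TGATGNAA of the ATF4 composite element, the E-box CACGTG bound by Myc and clock factors, and TGACNNNGC of the antioxidant element bound by NRF2, and capitals mark the matches, which do not overlap one another. The Asns window lies at chr6:7693160-7693459, on the minus strand as are Phgdh (chr3:98339920-98340219), Psph (chr5:129787204-129787503) and Slc7a11 (chr3:50443564-50443863), while Chac1 (chr2:119350992-119351291) is on the plus strand.
Asns: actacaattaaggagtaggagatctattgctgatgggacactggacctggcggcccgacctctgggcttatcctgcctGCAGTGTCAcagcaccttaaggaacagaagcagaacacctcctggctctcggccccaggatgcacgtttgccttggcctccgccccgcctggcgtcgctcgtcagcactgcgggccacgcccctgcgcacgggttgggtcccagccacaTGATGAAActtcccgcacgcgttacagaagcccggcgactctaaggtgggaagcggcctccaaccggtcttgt
Phgdh: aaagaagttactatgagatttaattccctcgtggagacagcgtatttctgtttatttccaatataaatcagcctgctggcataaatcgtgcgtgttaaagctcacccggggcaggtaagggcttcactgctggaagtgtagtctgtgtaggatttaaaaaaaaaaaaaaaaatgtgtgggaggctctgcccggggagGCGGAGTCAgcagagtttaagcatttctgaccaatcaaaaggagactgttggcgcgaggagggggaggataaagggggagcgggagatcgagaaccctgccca
Psph: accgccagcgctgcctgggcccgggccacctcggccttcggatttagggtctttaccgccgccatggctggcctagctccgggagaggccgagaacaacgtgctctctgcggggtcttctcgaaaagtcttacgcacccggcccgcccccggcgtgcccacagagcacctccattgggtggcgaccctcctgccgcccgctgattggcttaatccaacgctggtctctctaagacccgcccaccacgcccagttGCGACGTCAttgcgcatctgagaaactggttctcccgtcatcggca
Slc7a11: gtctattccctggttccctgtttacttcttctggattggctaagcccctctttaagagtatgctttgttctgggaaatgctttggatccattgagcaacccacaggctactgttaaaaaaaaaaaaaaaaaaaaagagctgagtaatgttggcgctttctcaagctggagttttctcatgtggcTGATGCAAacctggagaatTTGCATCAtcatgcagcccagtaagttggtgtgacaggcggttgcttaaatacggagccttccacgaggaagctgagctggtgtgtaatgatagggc
Chac1: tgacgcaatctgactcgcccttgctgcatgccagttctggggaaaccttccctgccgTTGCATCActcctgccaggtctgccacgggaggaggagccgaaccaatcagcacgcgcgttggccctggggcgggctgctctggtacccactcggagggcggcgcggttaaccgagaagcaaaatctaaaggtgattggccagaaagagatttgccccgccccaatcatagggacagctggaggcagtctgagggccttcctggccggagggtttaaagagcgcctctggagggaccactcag

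The ATF4 letters began 23 bases before the Asns start, in 1 of the 8 members with a window, and 3.97% of all 32851 windows held them. The antioxidant letters were found in 3 of the 9 member windows, against 12.4% of all windows. These were the windows of Asns (172 bases before the start), Phgdh (53 bases before it) and Psph (4 bases after it). The E-box was found in none of the 9 member windows, against 7.15% of all windows. Among 103 related genes with a window, 8 held the ATF4 letters, in 8 of their 124 windows. The shares of all windows above count windows and not genes. Of these, Chac1, Got1, Slc7a11 and Trib3 were lower with anti-OSM in the test below. The other 4 did not pass: Sqor (log2 fold change 0.41), Pycr1 (0.23), Slc1a4 (-0.11) and Nupr1 (-0.09). The E-box was in 10 of the 103 related genes (10 windows), with 4 lower and not all tested. The antioxidant letters were in 16 of the 103 (17 windows), with 5 lower and Gclm higher (0.37). Of all related genes tested, 30.3% were lower. A match is a run of letters in a short window and was not tested as a binding site.

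The 3 serine synthesis genes were lower in every anti-OSM library than in any anti-Ly6G library, and Psat1 and Phgdh were the most abundant of the 10 genes in both groups. Phgdh, the first enzyme (gene ID 236539, chromosome 3, 98313171 to 98339969), had 71.9, 86.5 and 73.3 TPM (a transcript level scaled for gene length and library size) in the anti-OSM libraries, against 108, 117 and 93.7 TPM in the anti-Ly6G libraries. The groups did not overlap, and the lowest anti-Ly6G library was close to the highest anti-OSM library. Psat1, the aminotransferase of the second step (gene ID 107272, chromosome 19, 15905123 to 15925059), had 118, 122 and 119 TPM with anti-OSM, against 149, 157 and 159 TPM with anti-Ly6G. Both groups were tight and did not overlap. Psph, the phosphatase that releases serine (gene ID 100678, chromosome 5, 129765558 to 129787443), had 51.0, 50.2 and 36.5 TPM with anti-OSM, against 85.4, 68.0 and 73.9 TPM with anti-Ly6G. Anti-OSM replicate 3 was the lowest of the 6, and the groups again did not overlap.

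On the counts, the log2 fold change of anti-OSM over anti-Ly6G was -0.43 for Phgdh (standard error, SE, 0.10), -0.35 for Psat1 (SE 0.06) and -0.70 for Psph (SE 0.13). Their summed level was 243 ± 15.3 TPM with anti-OSM and 337 ± 8.92 TPM with anti-Ly6G (SD, n = 3 each). In a piece of whole ear, fewer cells that express a gene and less RNA per cell cannot be told apart, here or for any gene below. Psph shares 88 bases at its start with Cct6a, a chaperonin subunit gene that was itself lower at -0.28 (SE 0.07, edgeR adjusted p = 0.0371). The sources used here do not say whether counting used strand, so reads of that overlap are uncertain.

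**Figure D1:**
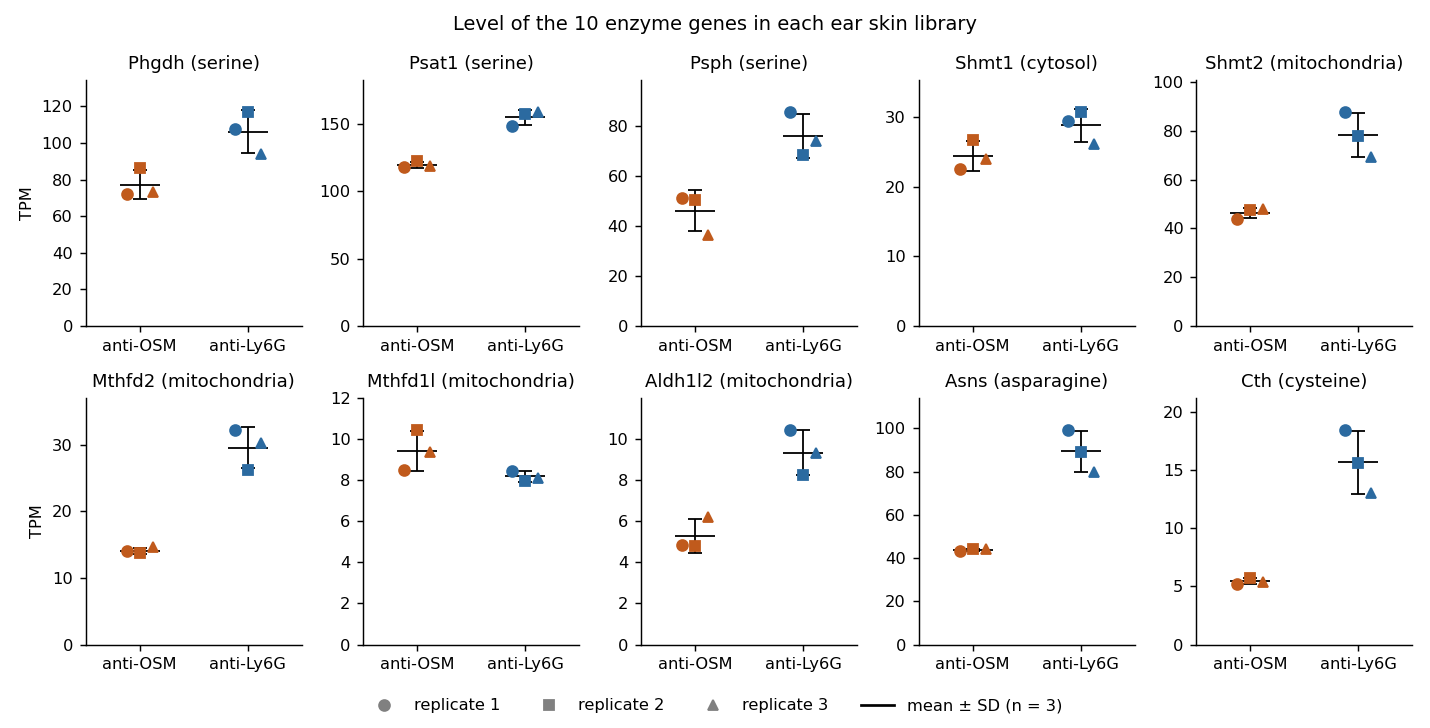
Level of each of the 10 genes in TPM (vertical axes, each from 0) in the 3 anti-OSM and 3 anti-Ly6G libraries, with mean and SD in black and the replicate number by marker shape. The groups stand apart for 8 genes, overlap for Shmt1 and meet for Mthfd1l.

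Of the mitochondrial folate enzymes, Shmt2, Mthfd2 and Aldh1l2 were lower with anti-OSM and Mthfd1l was not. Shmt2, which takes the carbon from serine (gene ID 108037, chromosome 10, 127517123 to 127522444), had 43.8, 47.4 and 47.8 TPM with anti-OSM, against 87.7, 77.7 and 69.3 TPM with anti-Ly6G. Mthfd2, the dehydrogenase and cyclohydrolase (gene ID 17768, chromosome 6, 83305704 to 83326011), had 14.0, 13.7 and 14.6 TPM with anti-OSM, against 32.1, 26.1 and 30.3 TPM with anti-Ly6G. Every anti-Ly6G library lay well above every anti-OSM library for both genes. Aldh1l2, which oxidises formyl-folate to carbon dioxide (gene ID 216188, chromosome 10, 83487447 to 83534146), had 4.83, 4.79 and 6.21 TPM with anti-OSM, against 10.4, 8.24 and 9.31 TPM with anti-Ly6G. Mthfd1l, the synthetase that yields formate (gene ID 270685, chromosome 10, 3972892 to 4167081), had 8.48, 10.4 and 9.40 TPM with anti-OSM, against 8.47, 7.96 and 8.14 TPM with anti-Ly6G. For Mthfd1l the groups met, since anti-OSM replicate 1 was level with anti-Ly6G replicate 1, and the other 2 anti-OSM libraries were higher. In CPM (counts scaled to library size by TMM, the trimmed mean of M values) its groups overlapped.

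The log2 fold changes were -1.04 for Mthfd2 (SE 0.11), -0.80 for Aldh1l2 (SE 0.15) and -0.73 for Shmt2 (SE 0.11). For Mthfd1l it was 0.23, with a 95% interval of -0.01 to 0.47. The cytosolic Shmt1 (gene ID 20425, chromosome 11, 60788897 to 60811265) had 22.5, 26.7 and 24.0 TPM with anti-OSM, against 29.5, 30.8 and 26.2 TPM with anti-Ly6G. Its groups overlapped, and its log2 fold change was -0.21 (95% interval -0.45 to 0.02). Shmt2 shares 32 bases with Ndufa4l2, which had -0.34 (edgeR adjusted p = 0.150).

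Set against their counterparts within the same library, the mitochondrial genes differed from one another. The ratio of Shmt2 to Shmt1 TPM was 1.95, 1.77 and 1.99 with anti-OSM, against 2.97, 2.52 and 2.65 with anti-Ly6G, and the groups did not overlap. That of Mthfd2 to Mthfd2l, a second mitochondrial dehydrogenase gene, was 2.96, 2.81 and 2.98 with anti-OSM, against 7.21, 5.94 and 5.95 with anti-Ly6G. That of Mthfd1l to the cytosolic Mthfd1 ran the other way, at 0.310, 0.392 and 0.373 with anti-OSM, against 0.263, 0.209 and 0.278 with anti-Ly6G. That of Aldh1l2 to the cytosolic Aldh1l1 was 0.619, 0.730 and 0.811 with anti-OSM, against 1.91, 0.710 and 0.783 with anti-Ly6G, so 1 library, anti-Ly6G replicate 1, set that group's mean. Of the counterparts, Mthfd1 was lower with anti-OSM by 0.37 on the log2 scale (edgeR adjusted p = 0.0254). Mthfd2l had 0.10 (adjusted p = 0.611) and Aldh1l1 had -0.36 (adjusted p = 0.410). Mthfd1 was still called when anti-Ly6G replicate 3 was left out, but with any of the other 5 libraries left out its adjusted p was 0.0587 to 0.0993.

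**Figure D2:**
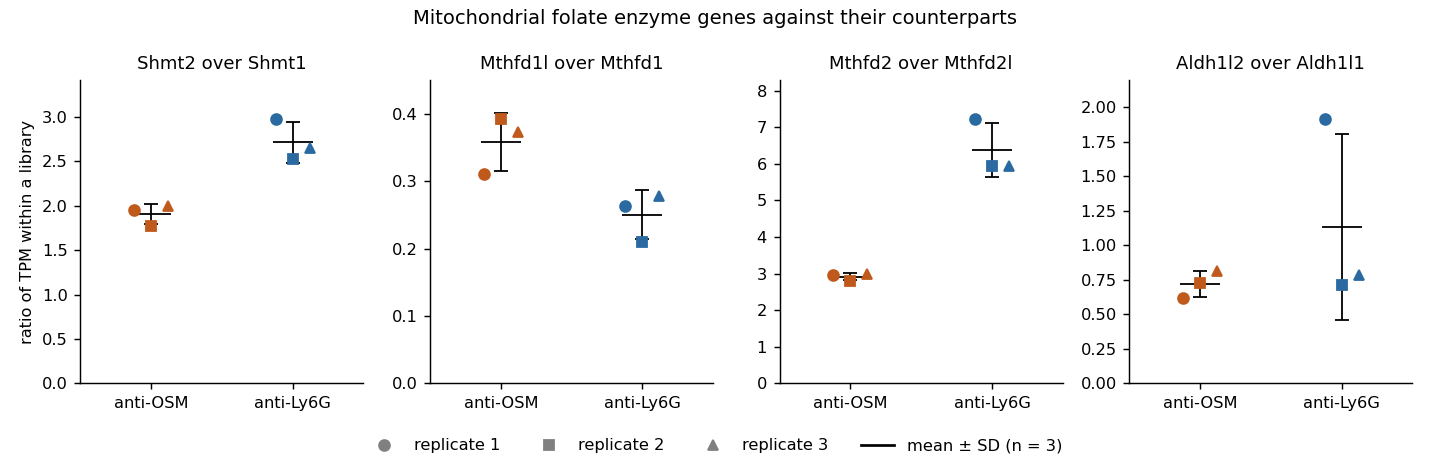
Ratio of TPM within each library (vertical axes, each from 0) for 4 pairs of folate enzyme genes, in the 3 anti-OSM and 3 anti-Ly6G libraries, with mean and SD in black. Shmt2 over Shmt1 and Mthfd2 over Mthfd2l are lower with anti-OSM in every library, Mthfd1l over Mthfd1 is higher, and Aldh1l2 over Aldh1l1 overlaps.

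Asns and Cth, which make asparagine and cysteine, were among the genes of the set with the largest differences. Asns (gene ID 27053, chromosome 6, 7675165 to 7693209), whose promoter window with the ATF4 letters is printed above, had 43.3, 44.1 and 44.2 TPM with anti-OSM, against 99.1, 89.1 and 79.9 TPM with anti-Ly6G. The anti-OSM libraries lay within about 1 TPM of each other, while the anti-Ly6G libraries spread more widely and none came near them. Cth (gene ID 107869, chromosome 3, 157894248 to 157925081) had 5.23, 5.76 and 5.40 TPM with anti-OSM, against 18.4, 15.6 and 13.0 TPM with anti-Ly6G. Every anti-Ly6G library was more than 2 times as high as every anti-OSM library. The log2 fold change was -1.01 for Asns (SE 0.10) and -1.50 for Cth (SE 0.15), the largest of the 10, at which Cth was 2.82-fold lower.

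In the fit over all genes (edgeR's quasi-likelihood test with Benjamini-Hochberg adjustment, threshold 0.05), 8 of the 10 genes were called lower with anti-OSM, where 6.27% of the 19915 genes tested were called lower and 5.81% higher. Shmt1 and Mthfd1l were not called. Mthfd2, Asns and Cth were also at least 2-fold lower, as were 1.18% of all genes tested. In CPM, all 3 anti-OSM libraries lay below all 3 anti-Ly6G libraries for the same 8 genes, against 17.3% of all genes tested, and above them for none of the 10, against 17.7% of all genes. Because the genes were proposed with this comparison known, nothing is read from these counts. The median log2 fold change was -0.71 over the 10 genes and 0.01 over all genes tested, and their summed level was 392 ± 17.5 TPM with anti-OSM and 596 ± 32.5 TPM with anti-Ly6G (SD, n = 3 each). With 1 library left out at a time, 4 genes were called without anti-OSM replicate 1, 5 without anti-OSM replicate 3, and 7 or 8 without any other library. The genes called each time were Shmt2, Mthfd2, Asns and Cth, again as a description, and no fold change altered its sign.

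**Figure D3:**
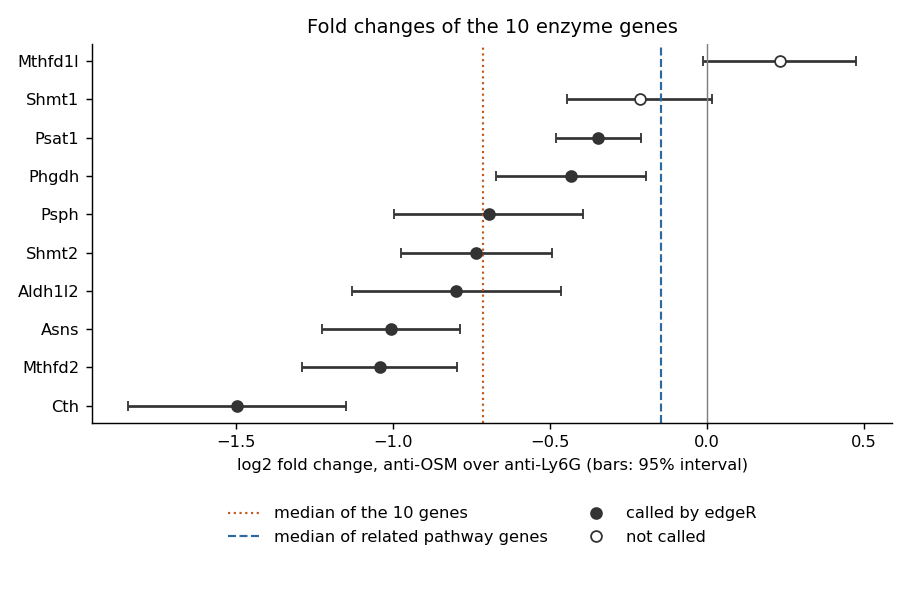
Log2 fold change of anti-OSM over anti-Ly6G (horizontal axis) for each of the 10 genes, with 95% intervals from edgeR's fit, filled where called. Cth at -1.50 and Mthfd2 at -1.04 are lowest, Mthfd1l at 0.23 is highest, and the medians of the 10 genes (-0.71) and of the related pathway genes (-0.15) are marked.

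By level, the order of the genes differed between the groups. With anti-OSM it ran Psat1, Phgdh, Shmt2, Psph, Asns, Shmt1, Mthfd2, Mthfd1l, Cth and Aldh1l2, from 119.6 to 5.28 TPM on average. With anti-Ly6G it ran Psat1, Phgdh, Asns, Shmt2, Psph, Mthfd2, Shmt1, Cth, Aldh1l2 and Mthfd1l, from 155 to 8.19 TPM. Neighbours whose libraries overlapped in level were Shmt2 with Psph, Psph with Asns and Cth with Aldh1l2 in the anti-OSM group. In the anti-Ly6G group they were Phgdh with Asns, Asns with Shmt2, Shmt2 with Psph, Mthfd2 with Shmt1, and Aldh1l2 with Mthfd1l.

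Within a group, most of the genes were high or low in the same library. Anti-OSM replicate 1 had the lowest CPM for 8 of the 10 genes, where 34.3% of all genes tested were lowest there. Anti-Ly6G replicate 1 had the highest CPM for 8 of the 10, where 32.4% of all genes were highest there. The coefficient of variation of CPM between libraries of a group ranged from 2.79% (Asns) to 16.6% (Aldh1l2) with anti-OSM and from 1.54% (Psat1) to 20.1% (Cth) with anti-Ly6G. Its medians over the 10 genes were 8.01% with anti-OSM and 13.3% with anti-Ly6G, beside 8.20% and 10.5% over all genes tested. Without anti-Ly6G replicate 1, the log2 fold change was -1.33 for Cth, -0.90 for Asns and -0.62 for Shmt2.

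Related genes of the same pathways, 130 in 9 lists that left out the 10 members, were read from the same fit. Of 129 found by symbol and 122 tested, 37 were lower with anti-OSM, 4 were higher and 81 did not pass, beside the 6.27% lower and 5.81% higher of all genes. These lists too were drawn up with results of this comparison known. The share lower was 30.3%, and the median log2 fold change was -0.15. Leaving out anti-OSM replicate 1, 2 or 3 gave 13, 18 and 18 lower, leaving out anti-Ly6G replicate 1, 2 or 3 gave 22, 27 and 38, and 13 of the 37 were called each time. The number higher was 1, 2 and 1 without anti-OSM replicate 1, 2 or 3, and 2, 3 and 8 without anti-Ly6G replicate 1, 2 or 3.

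Of the 9 lists, the one around 3-phosphoglycerate had the largest share lower, with 6 of 8 tested and a median of -0.40. It holds glycolysis genes on both sides of the branch to serine. Pgk1, which makes 3-phosphoglycerate, was at 187 ± 14.0 CPM with anti-OSM and 259 ± 13.5 CPM with anti-Ly6G (SD, n = 3 each). Its log2 fold change was -0.47, with SE 0.08 and an adjusted p of 0.0111. The enolase genes Eno3 (-0.61, adjusted p = 0.00837) and Eno1 (-0.43, adjusted p = 0.0101) were also lower. So was the mutase gene Pgam2 (-0.49, adjusted p = 0.0228). Pgam2 and Eno3 are the muscle forms of these enzymes. Of skeletal muscle markers, 7 of 8 were lower with anti-OSM too, beside 6.27% of all genes tested. The marker sums were 3056 to 3685 TPM, against 4491 to 5128 TPM with anti-Ly6G. The part of muscle in these values was not tested. Pgk1 and Eno1 have near-identical copies in the table, Pgk1-rs7 (-0.50) and Eno1b (-0.39), that can share their reads, so both are uncertain. Pgam1, another of the 6, likewise has a copy there, Pgam1-ps2 (-0.39). Pkm, the last of the 6, was called in 0 of the 6 fits on 5 libraries. Of Pgk1, Eno3, Eno1 and Pgam2, only Pgam2 missed the threshold in some fits on 5 libraries. Those left out anti-OSM 1, anti-OSM 2 or anti-Ly6G 1 (adjusted p 0.0730 to 0.0849). Without each library, 3 to 6 genes of the list were lower.

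Among regulators of the response to amino acid shortage, 6 of 16 were lower and 10 did not pass, with a median of -0.21. Trib3, a pseudokinase that feeds back on ATF4, was at 9.65 ± 1.46 CPM with anti-OSM and 20.8 ± 2.50 CPM with anti-Ly6G (-1.11, SE 0.13, adjusted p = 0.00376). Sesn2, a leucine sensor upstream of mTORC1, had -0.70 (SE 0.10, adjusted p = 0.00615), and Atf5, a transcription factor related to ATF4, had -0.52 (SE 0.06, adjusted p = 0.00407). Atf4 itself was at 167 ± 6.07 CPM with anti-OSM and 218 ± 14.4 CPM with anti-Ly6G (-0.39, SE 0.07, adjusted p = 0.0146). Atf4 missed the threshold whenever an anti-OSM library was left out (adjusted p 0.0506 to 0.0620), while Trib3, Sesn2 and Atf5 passed it with each of the 6 libraries left out. ATF4 protein, which is controlled largely through translation, was not measured. Of the list, 3 to 5 genes were lower without each library.

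Amino acid transporter genes had 6 lower, 1 higher (Slc38a1, 0.39, called in 1 of the 6 fits on 5 libraries) and 8 not passing of 15 tested, with a median of -0.16. Slc7a11, the cystine importer subunit whose promoter window held the ATF4 letters on both strands, was at 10.0 ± 1.82 CPM with anti-OSM and 16.5 ± 0.678 CPM with anti-Ly6G (-0.72, SE 0.13, adjusted p = 0.0149). Slc7a5, the light chain of a large neutral amino acid exchanger, had -0.84 (SE 0.10, adjusted p = 0.00365), and its heavy chain partner Slc3a2 had -0.30 (SE 0.06, adjusted p = 0.0214). Slc38a2, which imports small neutral amino acids, had -0.40 (SE 0.07, adjusted p = 0.0109). Slc38a2 missed the threshold with anti-OSM 1 left out (adjusted p = 0.0519), and Slc3a2 with anti-Ly6G 1 or any anti-OSM library left out (0.0583 to 0.0832). Of the list, 2 to 6 genes were lower without each library.

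Genes of asparagine, aspartate, glutamate and proline metabolism had 6 lower and 11 not passing of 17 tested, with a median of -0.11. Ass1, which joins aspartate to citrulline, was at 55.9 ± 7.77 CPM with anti-OSM and 117 ± 17.8 CPM with anti-Ly6G (-1.07, SE 0.13, adjusted p = 0.00470). The proline synthesis gene Aldh18a1 (-0.60, adjusted p = 0.00389) and the mitochondrial alanine aminotransferase gene Gpt2 (-0.35, adjusted p = 0.0161) were also lower. Of these 3, Gpt2 missed the threshold with anti-OSM 1 or 2 left out (adjusted p 0.0648 to 0.0691), and Ass1 and Aldh18a1 passed with each library left out. Of the list, 3 to 6 genes were lower without each library.

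Other folate genes and purine and thymidylate genes had 6 lower and 15 not passing of 21 tested, with a median of -0.19. Besides Mthfd1, given above, the purine synthesis genes Gart (-0.51, SE 0.09, adjusted p = 0.0136) and Pfas (-0.53, SE 0.11, adjusted p = 0.0207) were lower. The folate carrier gene Slc19a1 was lower too (-0.61, SE 0.13, adjusted p = 0.0207). Gart missed the threshold with anti-OSM 1 or 3 left out (adjusted p 0.0581 to 0.0586), and Pfas with either of those or with anti-Ly6G 1 or 2 left out (0.0618 to 0.0828). Slc19a1 passed on 5 libraries only with anti-Ly6G 3 left out (0.0620 to 0.0810 in the other fits). Across the 6 fits with a library left out, none to 7 of the list were lower. Proliferation markers had 1 of 8 lower (Top2a), beside 6.27% of all genes tested. They summed to 263 to 288 TPM with anti-OSM, against 296 to 329 TPM with anti-Ly6G. Their part in these values was not tested.

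Of the methionine cycle and transsulfuration genes, whose homocysteine feeds the route to Cth, 4 of 13 were lower and 9 did not pass, with a median of -0.01. Cbs, the enzyme before Cth, was at 18.4 ± 2.71 CPM with anti-OSM and 40.8 ± 12.5 CPM with anti-Ly6G (-1.14, SE 0.23, adjusted p = 0.0246). Bhmt, which returns homocysteine to methionine, was at 1.05 ± 0.153 CPM with anti-OSM and 4.20 ± 1.40 CPM with anti-Ly6G (-2.00, SE 0.26, adjusted p = 0.00498). Mat2a, which makes S-adenosylmethionine, had -0.54 (adjusted p = 0.0122) and Ahcy, which yields homocysteine, had -0.40 (adjusted p = 0.0137). Bhmt passed with each library left out. Cbs missed the threshold with anti-Ly6G 1 or any anti-OSM library left out (adjusted p 0.0620 to 0.0790), Mat2a with anti-OSM 1 left out (0.0519) and Ahcy with anti-OSM 1 or 3 left out (0.0544 to 0.0583). Of the list, 1 to 4 genes were lower without each library.

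Most genes for the use of cysteine, serine and glycine did not pass the test, as was so for all genes tested. The numbers lower, higher and not passing were 2, 1 and 9 of 12 for cysteine and glutathione, 1, 1 and 9 of 11 for serine use, and none, 1 and 8 of 9 for glycine, where 6.27% of all genes tested were lower and 5.81% higher. Of the 12 glutathione and cysteine genes, Chac1, which degrades glutathione, was lower with anti-OSM (-0.87, SE 0.19, adjusted p = 0.0255). Gss, the synthetase, was lower too (-0.35, SE 0.08, adjusted p = 0.0278). Gclm, the modifier subunit of the rate-limiting ligase, was higher (0.37, SE 0.08, adjusted p = 0.0223). Chac1 missed the threshold with anti-Ly6G 1 or any anti-OSM library left out, and Gss and Gclm also with anti-Ly6G 2 left out, at adjusted p from 0.0528 to 0.102. Of 11 genes listed for serine use, the only ones called were of the serine incorporator family, and use of serine was not measured. Serinc2 was at 45.3 ± 3.49 CPM with anti-OSM and 104 ± 8.91 CPM with anti-Ly6G (-1.20, SE 0.09, adjusted p = 0.000941). Its relative Serinc3 was higher with anti-OSM (0.56, SE 0.11, adjusted p = 0.0158). Serinc3 missed the threshold in the fits leaving out anti-OSM 1 or 3 (adjusted p 0.0622 to 0.0660). Of 9 glycine genes, Gatm, which uses glycine on the way to creatine, was higher with anti-OSM (0.49, SE 0.08, adjusted p = 0.0102). The glycine cleavage gene Gcsh did not pass (-0.28, adjusted p = 0.0715). The medians of these 3 lists were -0.06, 0.00 and 0.02.

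**Figure D4:**
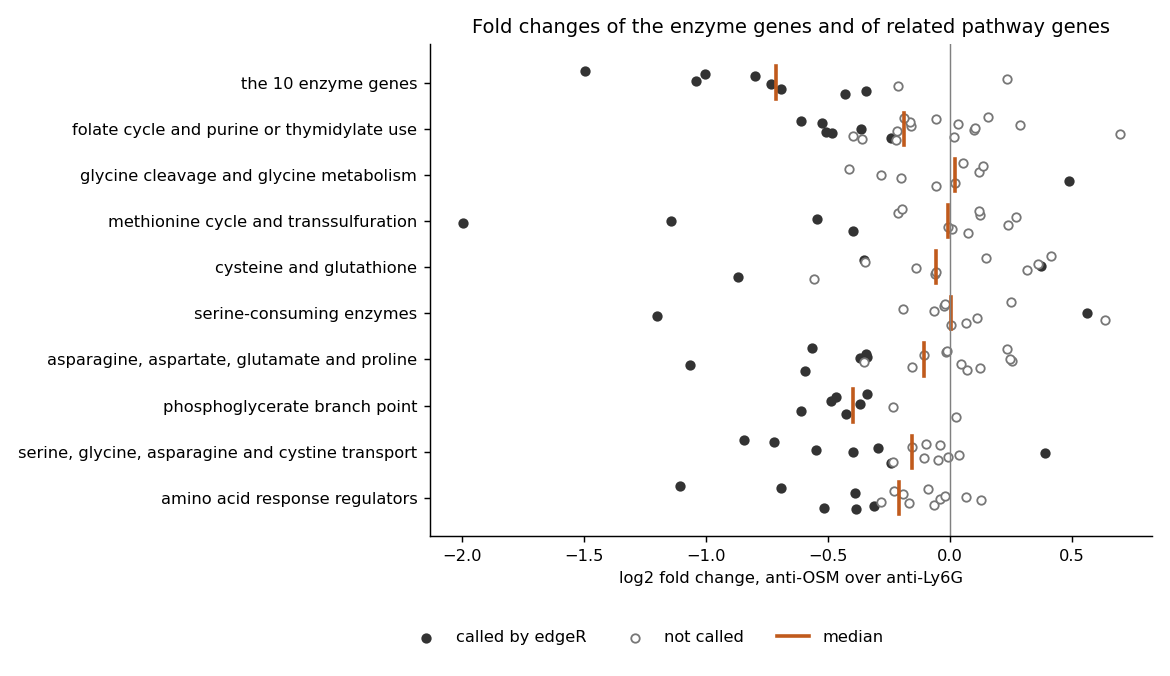
Log2 fold change of anti-OSM over anti-Ly6G (horizontal axis) for each tested gene of the set and of the 9 related lists, filled where called, with the list median in orange. The related medians run from -0.40 (phosphoglycerate) to 0.02 (glycine), and the 10 enzyme genes have -0.71.

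The genes most like the set in pattern were looked for among 11172 others with a mean of at least 10 CPM, by the root mean square distance in log2 CPM, centred on each gene's mean, over the 6 libraries. Nearest to the average of the 10 genes were Mdfi (0.02), Leo1 (0.04), Aldh18a1 (0.05), Pqlc1 (0.05) and Rcc1 (0.05), with log2 fold changes of -0.66 to -0.60. Nearest to Cth were Cdhr1 (0.05), Klk13 (0.11), E2f7 (0.12), Ptprz1 (0.12) and Tinagl1 (0.12), with -1.59 to -1.39. With 6 libraries in 2 groups, likeness of this kind mainly reflects a like difference between the groups.

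Markers of several cell types that the ear holds also differed between the groups. Beside their counts, 6.27% of all genes tested were called lower with anti-OSM and 5.81% higher. Keratinocyte markers were abundant, at a summed 25818 to 29565 TPM with anti-OSM and 29065 to 36818 TPM with anti-Ly6G, and 1 of 8 was lower (Krt14). Markers of activated keratinocytes had 5 of 8 lower, at 3278 to 5983 TPM against 8507 to 12206 TPM with anti-Ly6G. Hair follicle markers had 2 of 7 tested lower, at 40.9 to 52.3 TPM against 146 to 316 TPM, with the highest sum in anti-Ly6G replicate 1. Cartilage markers had 6 of 7 tested lower (149 to 166 TPM against 218 to 246 TPM) and sebocyte markers 2 of 6 (134 to 232 TPM against 241 to 330 TPM).

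Fibroblast markers had 3 of 6 higher with anti-OSM (5442 to 6025 TPM against 3412 to 4705 TPM), dendritic or Langerhans cell markers 5 of 6 (1389 to 1747 TPM against 962 to 1212 TPM) and mast cell markers 4 of 6 (935 to 1055 TPM against 533 to 694 TPM). Macrophage markers had 2 of 6 higher (1411 to 1696 TPM against 794 to 1357 TPM), eosinophil markers 2 of 5 tested (11.3 to 28.2 TPM against 4.23 to 8.58 TPM) and T cell markers 2 of 6 (83.4 to 87.9 TPM against 50.5 to 69.2 TPM). Of all genes tested, 5.81% were called higher. Endothelial marker sums overlapped, and none of 6 markers was called (141 to 149 TPM against 119.7 to 146 TPM). Neutrophil markers summed to 62.4 to 174 TPM with anti-OSM and 41.3 to 60.8 TPM with anti-Ly6G, with no call among the 4 tested, 2 of which had a log2 fold change below 0, and Ly6g was at or under 3 counts in every library. The part of these cell types in the differences of the enzyme genes was not tested.

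**Figure D5:**
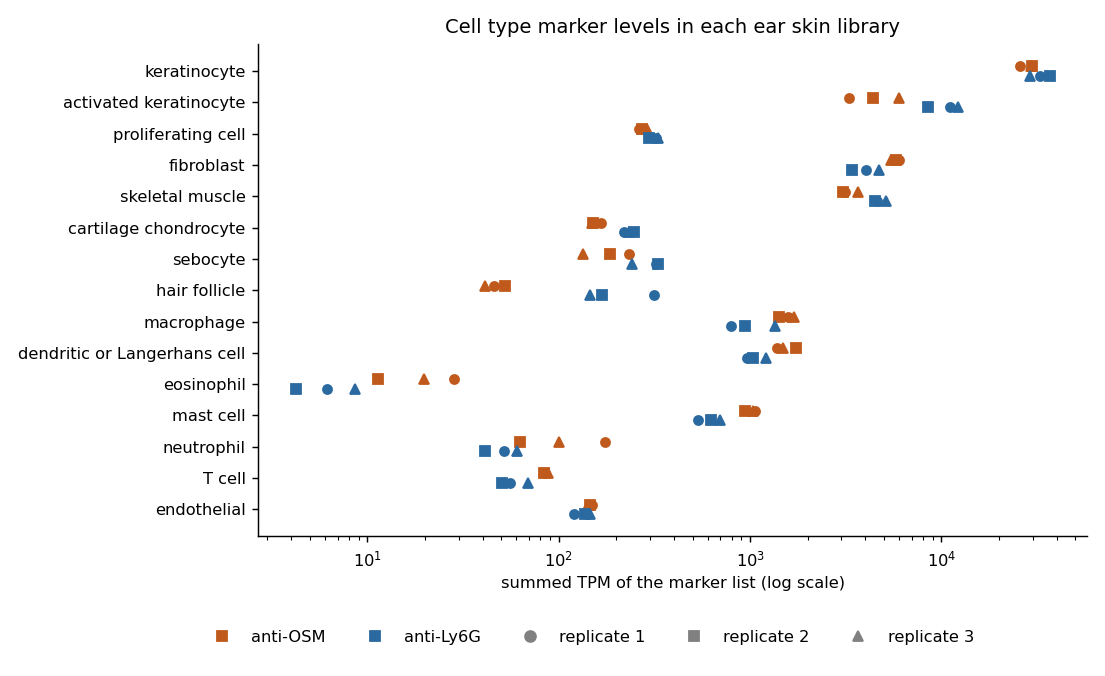
Summed TPM of 15 cell type marker lists (horizontal axis, log scale) in each anti-OSM and anti-Ly6G library, with the replicate number by marker shape. Activated keratinocyte and hair follicle sums are lower in every anti-OSM library, fibroblast and mast cell sums are higher, and keratinocyte sums overlap.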

How the data were processed

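Ear skin RNA of mice was measured by RNA sequencing. Of 16 libraries in the labels, the table used here holds 6, and the control and MC903 libraries were not analysed here. Per the file headers, each gene and library has a read count, FPKM and TPM. The deposited counts are whole numbers. The TPM values, computed by the authors and summing to 1000000 per library, gave levels and ratios. The deposited FPKM values were not used further. The submitters' processing notes name Trimmomatic 0.38, HISAT2 2.1.0, edgeR 3.40.2 and StringTie 2.1.3b without saying what each did, and mm10 among the builds. Positions and promoters are RefSeq's for GRCm38.p6, the assembly that mm10 names.

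Counts were fitted with edgeR 4.0.16 in R 4.3.3 (filterByExpr, TMM, robust quasi-likelihood F-test, 2-sided, Benjamini-Hochberg adjustment over 19915 genes), with no covariate. All adjusted p-values in the text are from this fit or its variants. Each standard error is the fold change divided by the root of F. The fit was tested on simulated data, where the share of false calls was above the nominal level of the threshold, so calls close to the threshold are less certain than their adjusted p-values say. DESeq2 1.42.0, limma 3.58.1 (voom, and log2 of TPM plus 1 or 0.1), other scalings and filters, a replicate block and leaving out each library were alternatives. A floor of 3 counts is 0.0468 to 0.0575 CPM and covers counting error only.

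The members and all lists were chosen with earlier results of these data known. Text names every member, up to 4 called genes of smallest p per related list (at least 2 genes a list), and the 5 genes nearest in pattern. A gene that this rule names is not reported here. Outside this rule, some genes were named after their values were seen. These were Slc38a1, Got1, Sqor, Pycr1, Slc1a4, Nupr1, Pgam1, Pkm, Cct6a, Ndufa4l2, the folate counterparts and the near-identical copies. The labels do not say that replicates were separate mice, and p-values then cover only library-to-library spread, which may be technical. Same-group libraries differed by more than counting noise (chi-square per gene of at least 26.2).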

Additional observations from a re-analysis of the deposited data

How the results depend on the processing

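All 180 values of the 10 genes' log2 fold changes under 18 other settings kept their sign and moved by less than the SD between libraries. In every setting with all 6 libraries, 8 members were called lower. Without each library the members called lower ranged from 4 to 8, the related genes called lower from 13 to 38 and higher from 1 to 8 (37 and 4 with all), and all genes called lower from 420 to 1447 and higher from 240 to 1545 (1249 and 1157 with all). Fewer samples were fitted there. On log2(TPM + 1) and log2(TPM + 0.1), 735 and 732 genes were called higher in limma. DESeq2 called 10 related genes higher, while it called 1655 of all genes higher, so the count rose over all genes too. The cause was not tested for either. Scaling moved the median of all genes by at most 0.02 on the log2 scale.

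The replicate numbers showed no clear pairing of the samples, though with 3 libraries a group a weak pairing could be missed. Same-numbered libraries had correlations of deviations of 0.0116, 0.0375 and 0.124, the last being the largest of all pairs. Anti-OSM replicate 1 correlated more with anti-Ly6G replicate 2 (0.0814) than with its own number. The replicate block called 1325 genes higher and 1275 lower, and 8 members lower. Each member had 239 reads or more in every library, and whether depth limits their calls was not tested. With 3 libraries a group, differences of the size seen for Shmt1 and Mthfd1l can go uncalled.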
